A study of Homo sapiens with 6 samples.

Results

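CXCR4, ACKR3, KIT, CD177, VIL1, CXCL12 and KITLG were followed in 6 RNA-seq libraries of human embryonic stem cells (ESCs) taken through definitive endoderm (DE) differentiation. They are 4 receptors or surface proteins, 1 epithelial cytoskeletal protein and 2 ligands. The genes were chosen by symbol, and all 7 were found among the 49278 named genes of the table.

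The cells were HUES8, an established human ESC line, either wild-type (WT) or carrying a heterozygous PDHB knockout (PDHB+/-). PDHB encodes the E1 beta subunit of the pyruvate dehydrogenase complex, which turns pyruvate into acetyl-CoA in mitochondria. The study asked how pyruvate metabolism bears on DE differentiation, and CXCR4 was the surface protein by which it followed differentiation, often scored together with SOX17 protein. All cells were grown in DMEM with 100 ng/mL Activin A, 0.2% bovine serum albumin and penicillin/streptomycin, and were collected after 3 days, with no undifferentiated library among those analysed. There were 2 WT libraries and 4 PDHB+/- libraries, the latter split evenly between the lines called clone #1 and clone #2. Each clone is a single edited line, both clones came from the same guide RNA, and both are compared with the same WT libraries. Nothing in the labels says that the libraries of a line came from separate cultures, so the p-values measure the spread between these libraries, which may be technical.

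CXCR4 is a G protein-coupled receptor for the chemokine CXCL12, and it guides the movement of endoderm cells during gastrulation as well as the homing of blood stem cells. ACKR3 binds the same ligand but signals through arrestins and takes CXCL12 out of the surroundings. KIT is the receptor tyrosine kinase for stem cell factor, the product of KITLG, and cells positive for both CXCR4 and KIT are a common definition of DE in stem cell cultures. CD177 is a GPI-anchored surface protein of neutrophils that has also been used to sort a subset of DE cells. VIL1 encodes villin, which bundles actin in the microvilli of gut epithelium and also marks visceral and gut endoderm.

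The promoters of the receptor CXCR4 and of both ligands are shown because both ligands rose and CXCR4 is the receptor of CXCL12. RefSeq promoters on GRCh38.p14 were matched for 4 of the 7 genes (CXCR4, KIT, CXCL12 and KITLG), with none for ACKR3, CD177 and VIL1. The 250 bases before the start site are printed 5′ to 3′ on the strand of the gene, and capitals mark the motifs searched for on both strands, namely the SMAD motif CAGAC, the FOXA motif TGTTTAC, the GATA factor motif AGATAA, the TCF/LEF motif CTTTGAT and the TATA box motif TATAAA. CXCR4 has 3 RefSeq start sites, and the sequence before the most upstream of them is given. The regions are chr2:136118150-136118399, chr10:44385098-44385347 and chr12:88580472-88580721, all on the minus strand.
CXCR4: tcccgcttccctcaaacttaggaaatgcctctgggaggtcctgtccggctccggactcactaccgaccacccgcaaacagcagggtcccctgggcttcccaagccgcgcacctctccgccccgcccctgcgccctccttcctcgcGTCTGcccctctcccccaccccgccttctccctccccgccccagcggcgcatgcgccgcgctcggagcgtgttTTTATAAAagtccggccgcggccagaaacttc
CXCL12: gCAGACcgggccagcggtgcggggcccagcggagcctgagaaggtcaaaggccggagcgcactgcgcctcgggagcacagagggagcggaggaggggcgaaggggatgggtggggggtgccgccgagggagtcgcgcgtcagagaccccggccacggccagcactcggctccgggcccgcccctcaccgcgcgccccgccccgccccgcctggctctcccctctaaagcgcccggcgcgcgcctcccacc
KITLG: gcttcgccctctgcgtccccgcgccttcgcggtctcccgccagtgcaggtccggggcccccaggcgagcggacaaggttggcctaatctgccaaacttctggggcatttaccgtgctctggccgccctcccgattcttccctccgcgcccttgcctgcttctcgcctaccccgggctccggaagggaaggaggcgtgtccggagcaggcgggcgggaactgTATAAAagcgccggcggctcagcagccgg
In CXCR4 the capitals are CAGAC on the opposite strand, 105 bases before the start, and TATAAA on both strands in overlapping positions, 32 and 30 bases before it. KITLG has TATAAA 29 bases before the start and CXCL12 has CAGAC 249 bases before it. KIT has CAGAC 150 bases before its start, and no FOXA, GATA or TCF/LEF letters were found in the windows of these 4 genes. Of all 35116 RefSeq windows of 300 bases, 45.3% hold CAGAC, 11.5% TATAAA, 10.3% AGATAA, 3.42% TGTTTAC and 2.62% CTTTGAT. A match to these letters is a description and not a binding site.

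The libraries held 11366826 to 14314834 reads on genes, worked out from the deposited TPM. This unit, a transcript's share of all transcripts counted, is normalized for gene length, so that levels of different genes can be set side by side. The edited gene was checked first. PDHB (chromosome 3, 58427630 to 58433857, minus strand of hg38) was at 369 and 362 TPM in the WT libraries, at 178 and 166 TPM in clone #1 and at 200 and 157 TPM in clone #2. All 4 PDHB+/- libraries lay below both WT libraries, at 48.0% of the WT mean, and no library went against its label. Of the 10 DE markers examined, SOX17, FOXA2 and GATA6 were abundant in every library, at 429 to 774, 119 to 147 and 430 to 553 TPM. FOXA1, also among the 10, was at 2.76 to 4.25 TPM, and the changes of these markers are given further below. Cell identity was not tested.

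**Figure D1:**
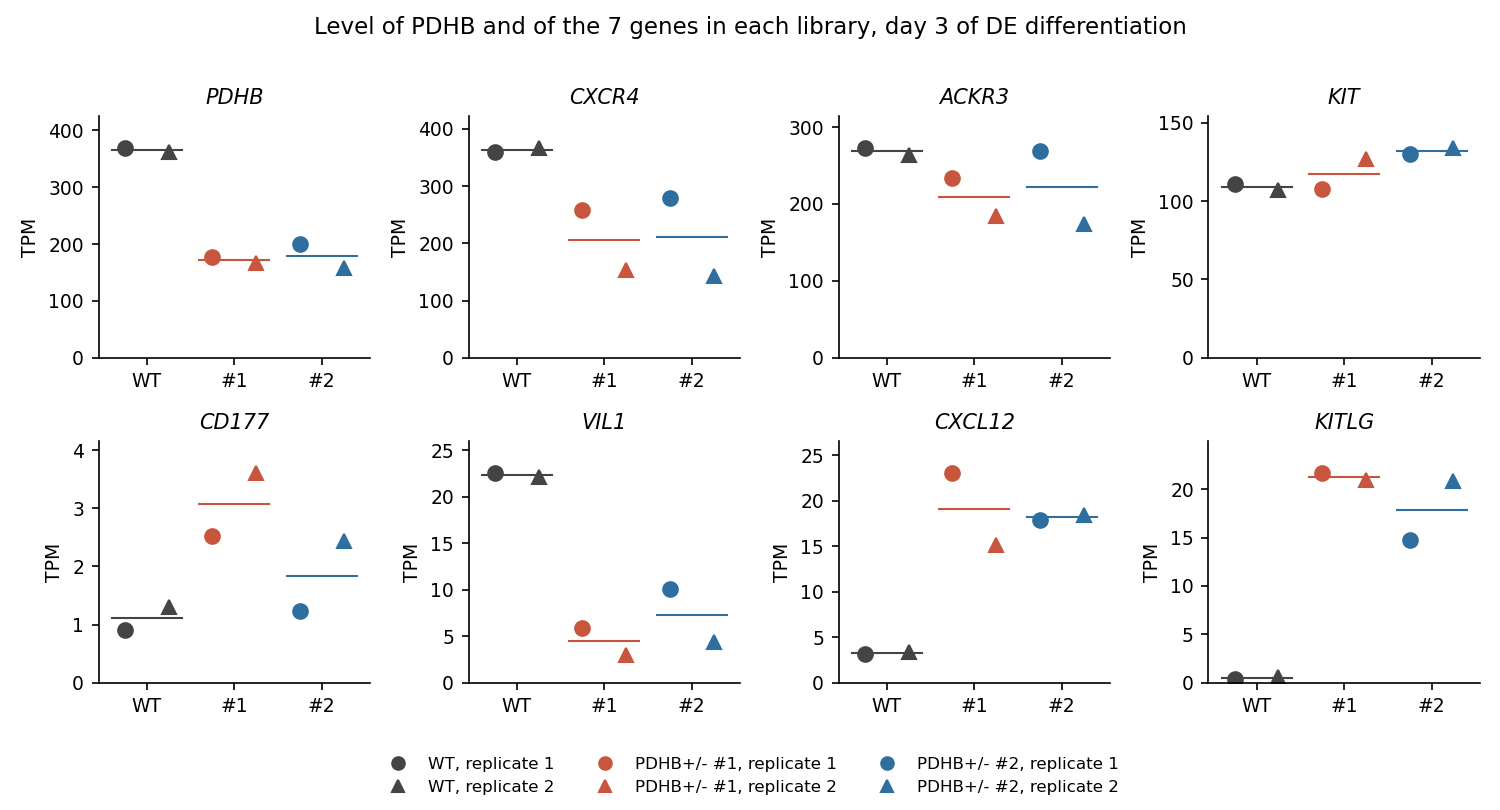
Levels in TPM (vertical axes, each starting at 0) of PDHB and of the 7 genes in each library, with replicate 1 as circles, replicate 2 as triangles and lines at the mean of each line's 2 libraries. CXCR4 and VIL1 lay below both WT libraries in all 4 PDHB+/- libraries, CXCL12 and KITLG lay above them, and ACKR3, KIT and CD177 overlapped.

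In WT cells the order of the levels was CXCR4 (363 ± 6.01 TPM, SD, n = 2), ACKR3 (268 ± 6.41), KIT (109 ± 2.94), VIL1 (22.4 ± 0.317), CXCL12 (3.28 ± 0.132), CD177 (1.10 ± 0.289) and KITLG (0.503 ± 0.102). The ranges of the 2 WT libraries did not overlap between any neighbours in this order. In PDHB+/- cells the order was ACKR3 (215 ± 43.9 TPM, SD, n = 4), CXCR4 (209 ± 70.5), KIT (125 ± 11.7), KITLG (19.6 ± 3.18), CXCL12 (18.6 ± 3.30), VIL1 (5.86 ± 3.06) and CD177 (2.45 ± 0.969). ACKR3 and CXCR4, KITLG and CXCL12, and VIL1 and CD177 overlapped in these libraries. CXCR4 was thus the most abundant of the 7 in WT cells, while both ligands passed VIL1 in PDHB+/- cells.

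Of the 7 genes, 2 rose and 1 fell in PDHB+/- cells against WT cells at an adjusted p-value under 0.05 (limma on log2(TPM + 1), Benjamini-Hochberg over the 17291 genes that averaged 1 TPM or more). Of all genes tested, 31.7% passed, 22.8% as higher and 8.86% as lower. The ranges of the WT and PDHB+/- libraries did not overlap for 4 of the 7 genes, against 54.9% of all genes tested. The median log2 fold change of all genes tested was 0.13, and scaling the libraries by the median of ratios moved it to -0.000594. With that scaling 2426 genes were called higher and 2512 lower, against 3943 and 1532 without it, so the shares by direction hold for unscaled TPM only. Since the RNA came from whole cultures, fewer cells expressing a gene and less RNA per cell cannot be told apart in any of these values.

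**Figure D2:**
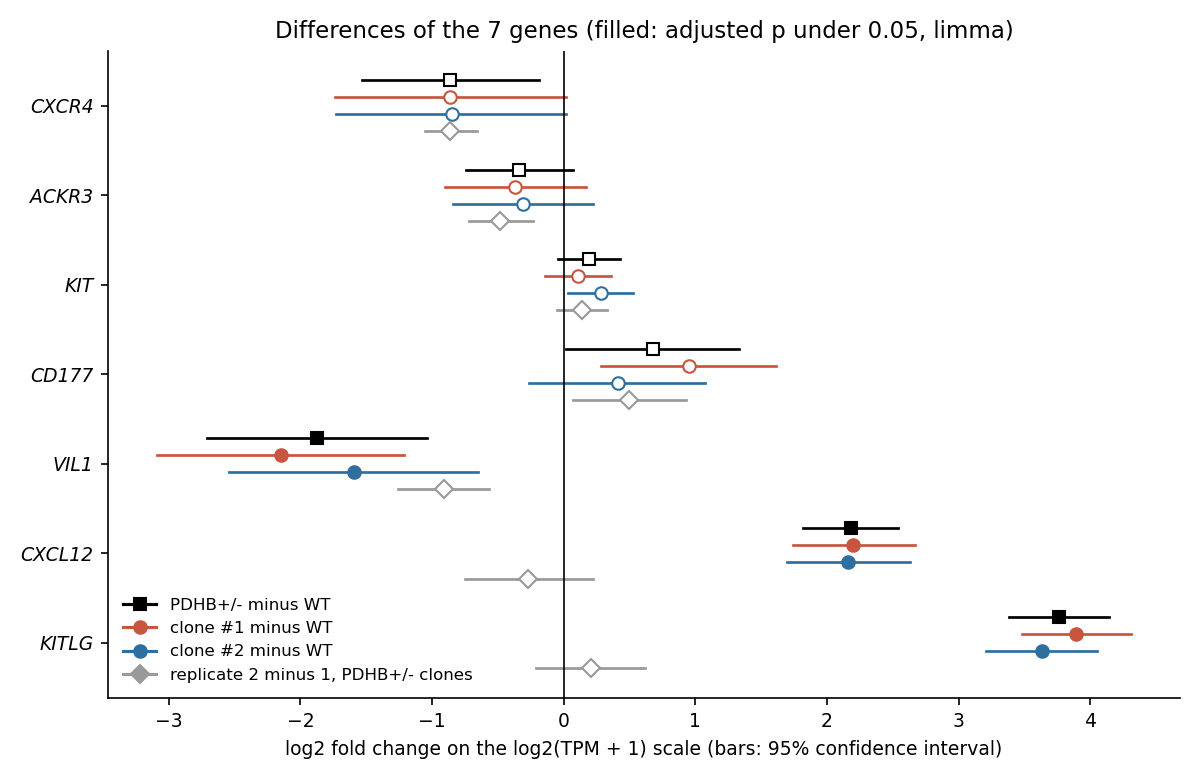
Log2 fold changes on the log2(TPM + 1) scale (horizontal axis) of the 7 genes, with 95% confidence intervals as bars, for PDHB+/- minus WT, each clone minus WT, and replicate 2 minus replicate 1 within the clones. Filled symbols passed an adjusted p of 0.05, which CXCL12, KITLG and VIL1 did in PDHB+/- cells and in each clone.

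CXCR4 lies on chromosome 2 from 136114349 to 136119177 on the minus strand (ENSG00000121966.8). It was at 359 and 367 TPM in the WT libraries, at 259 and 153 TPM in clone #1 and at 280 and 143 TPM in clone #2. Every PDHB+/- library lay below both WT libraries, and within each clone replicate 2 lay far below replicate 1, with 2492 against 3476 reads in clone #1 and 2175 against 4036 in clone #2. The mean in PDHB+/- cells was 57.5% of the WT mean. The log2 fold change of -0.86 (standard error 0.28, 95% confidence interval -1.53 to -0.19) did not pass, with an adjusted p of 0.056. It passed in 7 of 15 other settings, among them the median-of-ratios scaling (log2 fold change -1.0, adjusted p = 0.031), limma voom on the reads (-0.98, adjusted p = 0.0068), and the fits without clone #1 replicate 1 (-0.98, adjusted p = 0.045) or without clone #2 replicate 1 (-1.02, adjusted p = 0.032). Its adjusted p ranged from 0.0068 to 0.22 over these settings, with the same sign in each.

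ACKR3, on the same chromosome from 236567787 to 236582354 on the plus strand (ENSG00000144476.6), was at 273 and 264 TPM in the WT libraries, at 234 and 185 TPM in clone #1 and at 269 and 174 TPM in clone #2. The groups overlapped, since clone #2 replicate 1 lay between the WT libraries while the other 3 PDHB+/- libraries lay below them. ACKR3 gave a log2 fold change of -0.34 (standard error 0.17, 95% confidence interval -0.74 to 0.07, adjusted p = 0.18). Quantile normalization (-0.50, adjusted p = 0.017) and limma voom on the reads (-0.46, adjusted p = 0.020) placed it past the threshold.

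KIT, on chromosome 4 from 54657267 to 54740783 on the plus strand (ENSG00000157404.17), was at 111 and 107 TPM in the WT libraries, at 108 and 127 TPM in clone #1 and at 130 and 134 TPM in clone #2. It spanned 107 to 134 TPM over all 6 libraries, and 3 of the 4 PDHB+/- libraries lay above both WT libraries. KIT gave a log2 fold change of 0.19 (standard error 0.10, 95% confidence interval -0.04 to 0.43) with an adjusted p of 0.17. The interval leaves out any fall of more than 0.04 in this fit of unscaled TPM only, and that of clone #1 alone ran from -0.14 to 0.36. Without clone #1 replicate 1, the lowest of the 4, it was 0.26 (adjusted p = 0.038), and with the median-of-ratios scaling it was 0.05. KIT was thus not lower where CXCR4 was lower, and the KIT level per 100 of CXCR4, which was 30.9 and 29.0 in WT cells, was 41.6 and 82.9 in clone #1 and 46.5 and 93.7 in clone #2.

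CD177, on chromosome 19 from 43353686 to 43363172 on the plus strand (ENSG00000204936.10), was the lowest of the receptors and surface proteins. It had 12 and 19 reads in the WT libraries, 34 and 59 reads in clone #1, and 18 and 37 reads in clone #2, which corresponds to 0.899 and 1.31, 2.52 and 3.61, and 1.24 and 2.43 TPM. Clone #2 replicate 1 lay between the WT libraries and the other 3 lay above them. Counting error alone is wide at this depth, from 6.20 to 21.0 reads for WT replicate 1 and from 44.9 to 76.1 for clone #1 replicate 2 (exact Poisson 95% intervals). CD177 gave a log2 fold change of 0.68 (standard error 0.28, 95% confidence interval 0.02 to 1.33, adjusted p = 0.11). Without clone #2 replicate 1 it was 0.87 (adjusted p = 0.027). An unprocessed pseudogene copy, CD177P1, lies on the same chromosome from 43372742 to 43379123 and took 1 to 13 reads a library, between 5.26% and 42.9% of the reads on both, so the split of reads between the copies is uncertain. With the reads of both copies added, the log2 fold change was 0.57 (adjusted p = 0.20).

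VIL1, on chromosome 2 from 218419121 to 218453295 on the plus strand (ENSG00000127831.11), was at 22.6 and 22.1 TPM in the WT libraries, at 5.93 and 3.00 TPM in clone #1 and at 10.1 and 4.42 TPM in clone #2. All 4 PDHB+/- libraries lay far below both WT libraries, and as for CXCR4 the libraries numbered 2 were the lower ones in both clones. Its mean in PDHB+/- cells was 26.2% of the WT mean. VIL1 gave a log2 fold change of -1.87 (standard error 0.36, adjusted p = 0.0086), with -2.15 in clone #1 (adjusted p = 0.017) and -1.59 in clone #2 (adjusted p = 0.038). Leaving out a WT library kept the size but not the call, with -1.86 without replicate 1 and -1.89 without replicate 2. The same held in each clone, and clone #2 gave -1.08 without its replicate 2, also without the call. In these fits a group holds a single library and the spread comes from the other groups. In GENCODE v44, 44.2% of the exonic bases of VIL1 are shared with USP37, and no strand setting was given for the counting, so that reads of the 2 genes in the shared bases cannot be told apart. USP37 had 160 and 115 reads in the WT libraries, 225 and 199 reads in clone #1, and 216 and 214 reads in clone #2, against 690 and 736, 183 and 112, and 334 and 154 reads on VIL1. USP37 was thus not lower where VIL1 was lower (log2 fold change 0.45, standard error 0.17, adjusted p = 0.080).

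Both ligands rose. CXCL12, on chromosome 10 from 44370165 to 44386493 on the minus strand (ENSG00000107562.18), was at 3.19 and 3.38 TPM in the WT libraries, at 23.1 and 15.1 TPM in clone #1 and at 17.9 and 18.5 TPM in clone #2. The lowest PDHB+/- library lay far above the higher WT library, on 458 to 577 reads against 79 and 91. The mean was 5.68-fold the WT mean, for a log2 fold change of 2.18 (standard error 0.15, adjusted p = 0.00030). Clone #1 gave 2.20 and clone #2 gave 2.16, with adjusted p-values of 0.0027 and 0.0031. The gene passed in all 15 other settings, between 2.06 and 2.45.

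KITLG, on chromosome 12 from 88492793 to 88580851 on the minus strand (ENSG00000049130.16), was close to the detection limit in WT cells and well measured in PDHB+/- cells. It had 11 and 16 reads in the WT libraries, 560 and 655 reads in clone #1, and 412 and 608 reads in clone #2, which corresponds to 0.430 and 0.575, 21.7 and 20.9, and 14.8 and 20.8 TPM. The exact Poisson 95% intervals of the WT libraries ran from 5.49 to 19.7 and from 9.15 to 26.0 reads, and 3 reads, under which a level is not told apart from 0, correspond to at most 0.117 TPM for this gene. The mean was 38.9-fold the WT mean, and the log2 fold change on the log2(TPM + 1) scale, which understates changes of low genes, was 3.76 (standard error 0.16, adjusted p = 7.6e-05). Only 4 of the 17291 genes tested had a larger log2 fold change, KITLG being at rank 5 from the highest and CXCL12 at rank 53. Clone #1 gave 3.89 (adjusted p = 0.00071) and clone #2 gave 3.63 (adjusted p = 0.00083). KITLG reached the mean of 1 TPM only through the PDHB+/- libraries, and without that filter it passed as well (3.76, adjusted p = 0.00084). The gene passed in all 15 other settings, between 3.61 and 5.11, with 5.02 from a pseudocount of 0.1 TPM in place of 1 and 5.11 from limma voom on the reads.

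Set against their receptors, the ligands stayed the rarer transcripts in every library. CXCL12 was at 0.889 and 0.919 per 100 of CXCR4 in WT cells, at 8.91 and 9.86 in clone #1 and at 6.40 and 12.9 in clone #2. KITLG was at 0.389 and 0.540 per 100 of KIT in WT cells, at 20.1 and 16.5 in clone #1 and at 11.4 and 15.5 in clone #2. For both pairs the lowest PDHB+/- library lay above both WT libraries. ACKR3 was at 76.1 and 71.8 per 100 of CXCR4 in WT cells and at 90.3 and 121 in clone #1 and 96.0 and 122 in clone #2. CXCR4 was therefore the more abundant of these receptors in the WT libraries and in the clone libraries numbered 1, and ACKR3 in the clone libraries numbered 2. These ratios are given as a description, with no test.

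**Figure D3:**
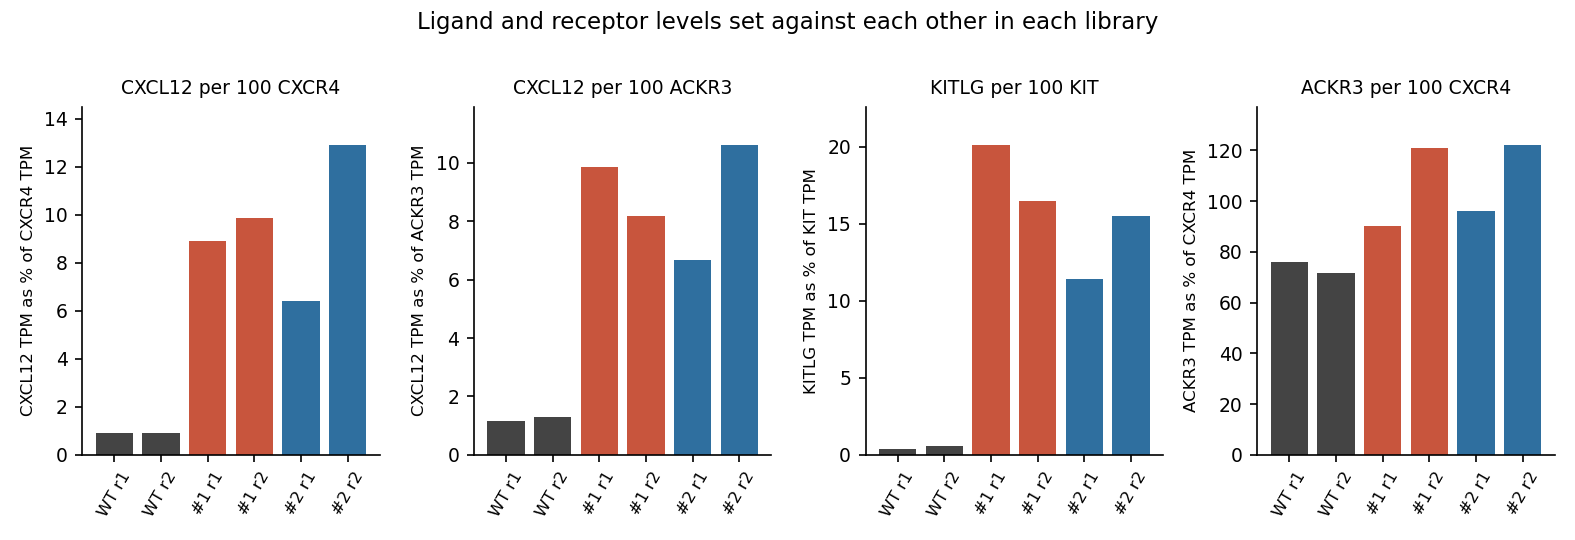
TPM of CXCL12, KITLG and ACKR3 as a percentage of the TPM of the receptor named in each panel (vertical axes, from 0), by library, with r1 and r2 as replicate numbers. The ligand bars of the WT libraries are at most 1.28% and those of the PDHB+/- libraries at least 6.40%.

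Each clone was also compared with WT cells on its own. Against a background of 19.9% of genes passing in clone #1 and 20.0% in clone #2, KITLG, CXCL12 and VIL1 passed in each clone and CXCR4, ACKR3, KIT and CD177 in neither. CXCR4 gave -0.86 in clone #1 and -0.85 in clone #2, and its adjusted p was 0.14 in each. With 1 library left out these ranged from -1.24 to -0.49 in clone #1 and from -1.33 to -0.37 in clone #2, and neither passed. With limma voom on the reads it passed in both clones (-0.97 and -0.99, adjusted p = 0.033 in each), and ACKR3 passed in clone #1 with quantile normalization (-0.53, adjusted p = 0.045). CD177 passed in clone #1 without either library of clone #2 (0.95 in both fits, adjusted p = 0.044 and 0.045). The clones share their WT libraries, so these values are not independent of each other. Between the clones themselves, 0.0174% of genes passed, and none of the 7 was among them. CXCR4 differed between the clones by 0.01 (95% confidence interval -0.87 to 0.89), CXCL12 by -0.04 (-0.50 to 0.43) and KITLG by -0.26 (-0.68 to 0.15), and VIL1 by 0.56 (-0.39 to 1.50). The intervals of CXCR4 and VIL1 are wide in this fit, which has no term for the replicate number.

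The spread within the clones was itself patterned. Replicate 2 was lower than replicate 1 in both clones for CXCR4, ACKR3 and VIL1, and higher in both for KIT and CD177. With clone and replicate number in 1 fit of the 4 PDHB+/- libraries, replicate 2 minus replicate 1 was -0.86 for CXCR4 (standard error 0.07, adjusted p = 0.085), -0.91 for VIL1 (0.12, adjusted p = 0.090) and -0.48 for ACKR3 (0.09, adjusted p = 0.099). For CXCR4 this difference between libraries of the same line was as large as that between PDHB+/- and WT cells. In this fit 0% of the genes tested passed, 4440 genes or 25.7% had an unadjusted p under 0.05, and 1218 genes passed when only those averaging 5 TPM or more were tested, CXCR4 (adjusted p = 0.014), VIL1 (adjusted p = 0.027) and ACKR3 (adjusted p = 0.034) among them. The WT libraries, in contrast, differed little, by 359 against 367 TPM for CXCR4 and 22.6 against 22.1 TPM for VIL1. The labels do not say what a replicate number stands for.

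The 4 PDHB+/- libraries came in the same order for CXCR4, for ACKR3 and for PDHB itself, from clone #2 replicate 1 over clone #1 replicate 1 and clone #1 replicate 2 to clone #2 replicate 2. This order was found in 8.39% of the genes tested, among them 3 of the 10 DE markers examined (CER1, FOXA2 and GATA6).

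**Figure D4:**
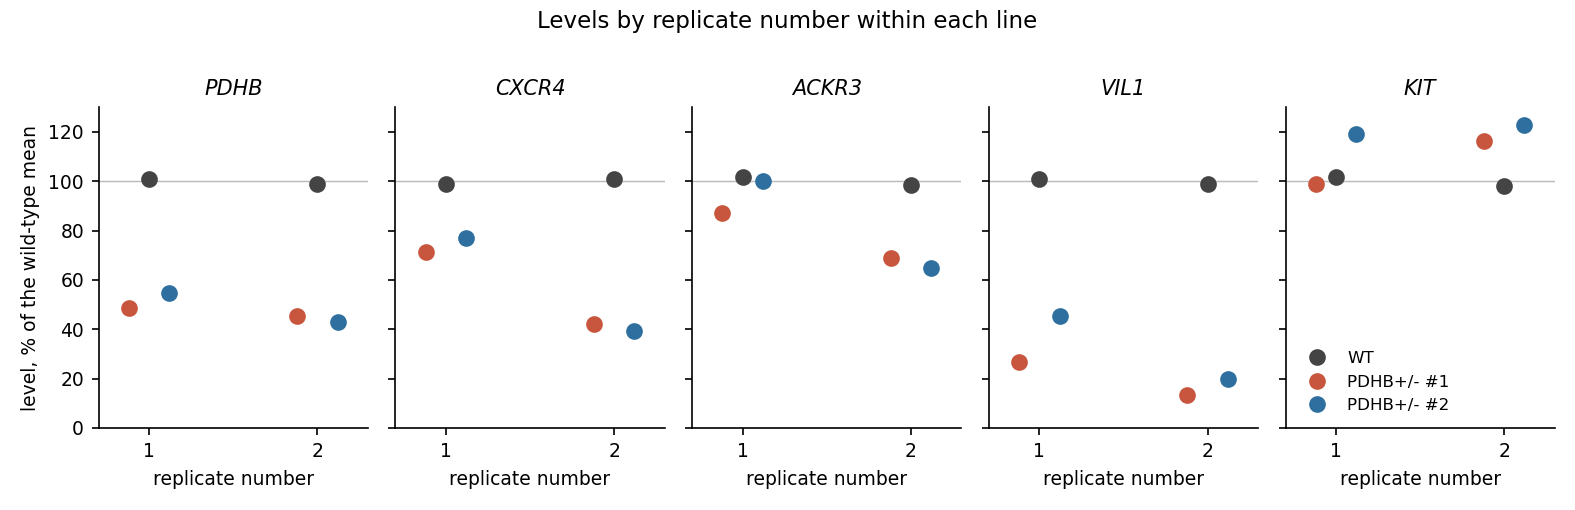
Levels of PDHB, CXCR4, ACKR3, VIL1 and KIT as a percentage of the WT mean (vertical axis, from 0) in the libraries numbered 1 and 2 of each line (horizontal axis). The WT points stay near 100% at both numbers, whereas CXCR4, ACKR3 and VIL1 of both clones lie lower at number 2.

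Markers of the cell types that a DE culture can hold moved as well, and their part in the results was not tested. The 10 DE markers summed to 15910 to 16127 TPM in WT cells and 11182 to 15144 TPM in PDHB+/- cells, most of it CER1, with SOX17 and EOMES rising and GSC and HHEX falling. CER1 itself did not pass in the main fit (log2 fold change -0.48, adjusted p = 0.095) or with quantile normalization. The 6 pluripotency markers summed to 799 to 814 TPM in WT cells and 1016 to 1254 TPM in PDHB+/- cells, most of it LIN28A. Across the libraries POU5F1 was at 2.13 to 9.79, NANOG at 6.15 to 25.9 and SOX2 at 1.61 to 7.22 TPM. Of the 6 markers 5 rose, where 22.8% of all genes rose, and SOX2 did not pass (adjusted p = 0.19). With the median-of-ratios scaling 3 of the 6 passed, without DPPA4 and LIN28A, and the DE markers FOXA2 and CER1 were called lower. The 8 mesoderm markers summed to 28.4 to 29.2 and 62.0 to 85.8 TPM, PDGFRA and KDR rose, and MSGN1 stayed at or under 3 reads in every library. HAND1 and TBXT reached the mean of 1 TPM only through the PDHB+/- libraries, with at most 0.688 TPM in WT cells. TBX6 went the other way, at 1.91 and 1.31 TPM in WT cells and 0.263 to 1.25 TPM in PDHB+/- cells, and was not tested. These are the mesoderm values that stand beside the rise of CXCL12 and KITLG, genes that mesoderm and stroma are known to express. The 8 markers of blood and endothelium, the lineages best known for KIT and CD177, summed to 0.457 to 0.910 TPM in WT cells and 2.78 to 5.08 TPM in PDHB+/- cells, of which RUNX1 made up 0.113 and 0.209 TPM in WT cells and 2.49 to 4.68 TPM in PDHB+/- cells, while PECAM1, CD34, TAL1 and SPI1 were at or under 3 reads in every library.

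Among the 6 markers of primordial germ cells, another KIT-positive type, PRDM1 rose and TFAP2C fell, the sums were 67.6 to 67.7 TPM in WT cells and 84.1 to 88.5 TPM in PDHB+/- cells, and DPPA3, DDX4 and DAZL were at or under 3 reads throughout. The 7 markers of visceral endoderm and yolk sac, a VIL1-positive type, summed to 14.8 to 17.4 and 26.2 to 40.5 TPM. Of the 3 tested, AMN and CUBN rose and APOA1, the most abundant, did not pass (8.43 and 11.6 TPM in WT cells, 10.3 to 23.7 TPM in PDHB+/- cells, adjusted p = 0.13), and AFP and TTR were at or under 3 reads in every library. The 6 markers of trophoblast and amnion summed to 12.3 to 14.2 and 24.8 to 35.1 TPM, with ISL1 and GATA3 rising (GATA3 not with the median-of-ratios scaling) and KRT7 at or under 3 reads. The 4 neuroectoderm markers summed to 528 to 534 and 462 to 585 TPM, most of it OTX2, so these sums largely give the level of that gene. SOX1 was at 0.0429 to 0.473 TPM across the libraries and was not tested, and PAX6 was at 5.62 to 12 TPM. NES rose, while OTX2 and PAX6 were called lower with the median-of-ratios scaling and quantile normalization.

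The genes around CXCR4 and ACKR3 were described from a list of ligands, kinases, arrestins and G protein subunits. Of 24 tested, 4 rose and 5 fell, or 37.5% against 31.7% of all genes, and the median log2 fold change was 0.15. CXCL14, a chemokine reported to bind CXCR4, rose from 0.726 ± 0.0434 in WT cells (TPM, SD, n = 2) to 11.1 ± 2.80 in PDHB+/- cells (TPM, SD, n = 4), a log2 fold change of 2.78 (adjusted p = 0.00035), and it too reached the filter only through the PDHB+/- libraries. The arrestins moved apart. ARRB1 rose from 63.6 ± 4.12 to 117 ± 31.6 TPM (0.84, adjusted p = 0.026) and ARRB2 fell from 36.3 ± 1.26 to 21.5 ± 1.42 TPM (-0.73, adjusted p = 0.0014). SDC4, a heparan sulfate proteoglycan that binds CXCL12, fell from 62.4 ± 0.0380 to 38.1 ± 5.28 TPM (-0.71, adjusted p = 0.0057). The most abundant genes of the list, UBB (835 and 985 TPM in WT and PDHB+/- cells) and the G protein subunit GNB1 (317 and 354 TPM), did not pass. MIF, another ligand of CXCR4, was listed at 0 in all libraries. Why it was listed at 0 was not tested, and the value is not read as absence of its RNA.

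CXCR4 and ACKR3 stood alone among the chemokine receptors. None of the other 24 reached a mean of 1 TPM, so none was tested, and the highest were CCR7 (0.145 and 0.868 TPM in WT and PDHB+/- cells) and PITPNM3 (0.467 and 0.591 TPM). Of 37 other chemokine ligands, 33 were under the same limit, and of the 4 tested 0 rose and 2 fell, where 8.86% of all genes fell. The 2 include XCL1, whose fall is tied to the filter, so the count says little about the ligands. With the median-of-ratios scaling, 3 of the 4 were lower. CCL2, the ligand that attracts monocytes, fell from 115 ± 4.14 to 24.5 ± 7.82 TPM (-2.25, adjusted p = 0.0023), the opposite direction to CXCL12. XCL1 fell from 2.68 ± 0.630 to 0.914 ± 0.550 TPM (-0.97, adjusted p = 0.033), on at most 18 reads a library. It reached the mean of 1 TPM only through the WT libraries. CCL26, at 3.86 and 3.06 TPM, did not pass.

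Of 29 partners of KIT signalling, which include adaptors, kinases, phosphatases and shedding proteases, 8 rose and 5 fell, or 44.8% against 31.7% of all genes, with a median log2 fold change of 0.15. The count includes MMP9 (0.395 TPM in WT and 1.68 TPM in PDHB+/- cells) and ADAM33, each of which reached the filter only through the group where it was high. With quantile normalization 8 were higher and 8 lower, and with the median-of-ratios scaling 7 and 6. Those that rose furthest were SH2B3, an adaptor that restrains KIT and JAK signalling (3.06 ± 0.202 to 8.47 ± 2.00 TPM, log2 fold change 1.20, adjusted p = 0.0039), and SOCS1, a cytokine signal suppressor (4.59 ± 2.02 to 10.9 ± 1.50 TPM, 1.13, adjusted p = 0.0082). Those that fell furthest were the adaptor GRB7 (10.2 ± 0.477 to 3.17 ± 0.619 TPM, -1.44, adjusted p = 0.00099) and the metalloprotease ADAM33 (4.15 ± 0.530 to 0.959 ± 0.356 TPM, -1.41, adjusted p = 0.0030). ADAM33 reached the mean of 1 TPM only through the WT libraries. PLCG1, the most abundant over all 6 libraries, rose from 93.5 ± 0.0326 to 139 ± 7.58 TPM (0.57, adjusted p = 0.0021), while GRB2, the more abundant of these in WT cells, was at 110 and 123 TPM and did not pass.

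KITLG was not the only ligand of its receptor family to rise. Of the other 7 ligands, 3 rose and 1 fell, or 57.1% against 31.7% of all genes. PDGFB rose from 6.39 ± 0.269 to 18.7 ± 2.13 TPM (1.41, adjusted p = 0.00043), PDGFA from 1.32 ± 0.0769 to 4.08 ± 0.860 TPM (1.11, adjusted p = 0.0044) and PDGFC from 1.52 ± 0.215 to 4.15 ± 0.789 TPM (1.02, adjusted p = 0.0057). IL34, a ligand of CSF1R, fell from 11.1 ± 0.893 to 6.28 ± 1.26 TPM (-0.75, adjusted p = 0.016). PDGFD, at 13.7 and 16.0 TPM, did not pass. Of the receptors, PDGFRA rose from 8.38 ± 0.0302 to 19.2 ± 4.81 TPM (1.08, adjusted p = 0.0088), PDGFRB was at 1.05 and 2.01 TPM (adjusted p = 0.18), and CSF1R and FLT3 were under 1 TPM. KIT remained the most abundant receptor of its family in every library.

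Of 26 other surface proteins of endoderm, epithelium and stem cells, 11 rose and 6 fell, or 65.4% against 31.7% of all genes. With the median-of-ratios scaling, 8 were higher and 7 lower. The largest rises were in THBD, thrombomodulin (20.8 ± 0.104 to 101 ± 5.56 TPM, 2.22, adjusted p = 5.7e-05), and PROM1, also called CD133 (2.76 ± 0.0191 to 14.1 ± 0.828 TPM, 2.00, adjusted p = 7.9e-05). The largest falls were in the WNT receptor FZD5 (407 ± 18.4 to 131 ± 24.9 TPM, -1.64, adjusted p = 0.00081) and in CD99 (58.2 ± 0.278 to 31.6 ± 4.93 TPM, -0.87, adjusted p = 0.0039). CDH2 (N-cadherin) rose from 599 ± 10.1 to 893 ± 130 TPM (0.56, adjusted p = 0.021), and CD63, at 495 and 452 TPM, did not pass. ICOSLG, which has been used beside CD177 to divide DE cells, was at 10.6 and 16.2 TPM with an adjusted p of 0.090.

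Of the partners and chromosomal neighbours of CD177, 2 of 9 were tested and both fell, where 8.86% of all genes fell, namely PLAUR, the urokinase receptor (10.8 ± 0.223 to 5.05 ± 0.985 TPM, -0.97, adjusted p = 0.0048), and PINLYP (2.04 ± 0.0842 to 0.606 ± 0.200 TPM, -0.93, adjusted p = 0.011). PINLYP reached the mean of 1 TPM only through the WT libraries, so its fall is tied to the filter and the count says little about these genes. CD177 itself did not pass (log2 fold change 0.68, adjusted p = 0.11), so these falls are not set against it. PRTN3, the protease that CD177 presents on neutrophils, was listed at 0 in all libraries.

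The genes of the villin family and the brush border changed in both directions. Of the 17 found, 9 were tested, of which 3 rose and 3 fell, or 66.7% against 31.7% of all genes, with a median log2 fold change of -0.08. With the median-of-ratios scaling, 2 were higher and 4 lower. The villin-like gene VILL fell from 5.67 ± 1.17 to 1.94 ± 0.798 TPM (-1.21, adjusted p = 0.014) and PLS1, a fimbrin of microvilli, from 6.10 ± 1.02 to 2.58 ± 0.403 TPM (-0.99, adjusted p = 0.0042). The actin regulator EPS8 rose from 1.91 ± 0.0790 to 5.75 ± 0.238 TPM (1.21, adjusted p = 0.00049) and the actin bundler ESPN from 2.67 ± 0.0435 to 5.88 ± 1.99 TPM (0.86, adjusted p = 0.037). The scaffold SLC9A3R1 rose from 338 ± 17.4 to 525 ± 71.2 TPM (0.63, adjusted p = 0.011), whereas EZR, which links actin to the membrane, was at 229 and 237 TPM. MYO1A, MYO7B, CDHR2, CDHR5 and the intestinal factors CDX1 and CDX2 were under 1 TPM in the mean and were not tested.

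**Figure D5:**
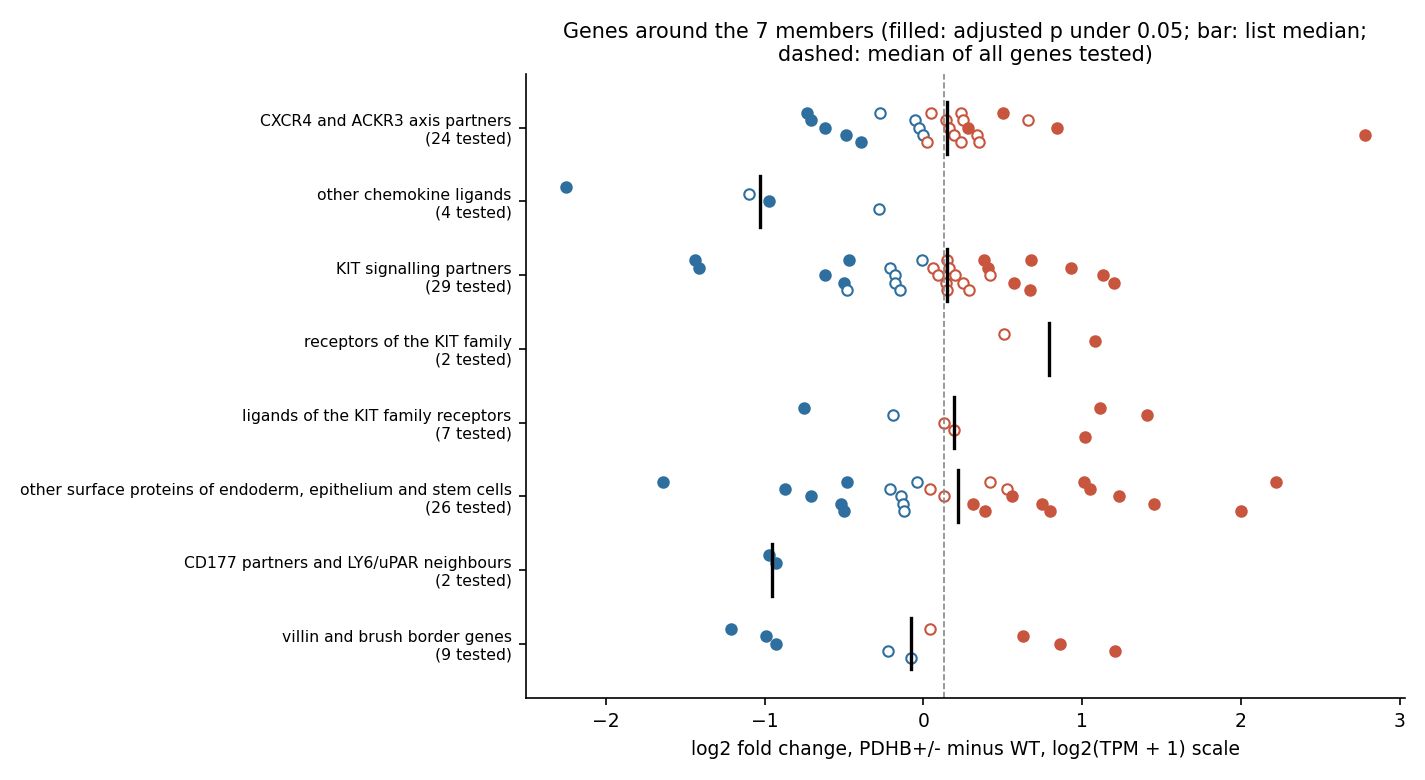
Log2 fold changes of PDHB+/- minus WT on the log2(TPM + 1) scale (horizontal axis) for the tested genes of 8 lists around the 7 genes, with filled points past an adjusted p of 0.05, bars at list medians and a dashed line at 0.13, the median of all genes tested. Most lists hold genes on both sides of 0, and the tested chemokine ligands and CD177 neighbours lie below it.

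For the 6 of the 7 that averaged at least 5 TPM, the genes most alike over the 6 libraries were looked up among 11849 genes at that level. The correlations of log2(TPM + 1) share the contrast between WT and PDHB+/- cells and are given as a description. CXCR4 was most like BAK1 (Pearson r = 0.9987), TUBA1B (0.9968) and CENPI (0.9958). CXCL12 was most like EPHA2 (0.9994), PDGFB (0.9992) and TNIK (0.9988), and KITLG like COL5A1 (0.9994), ENTR1 (0.9990) and ZSWIM4 (0.9987). ACKR3 was most like STOM (0.9959), KIT like SLC12A9 (0.9918), CMTR1 (0.9894) and KIN (0.9893), and VIL1 like STK24 (0.9966), MGMT (0.9958) and ITGA6 (0.9950). None of the 7 was among the nearest genes of another of them.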

How the data were processed

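RNA-seq of 6 HUES8 libraries, collected at day 3 of DE differentiation, was analysed. Reads had been aligned by the authors to hg38 (Bowtie2 2.3.5.1 and FastQC 0.12.1 in the submitters' processing notes) with 1 location kept per read, assigned to genes by featureCounts and deposited as TPM. The strand setting and the gene annotation are not given in the sources used here. The table held 49278 named genes and 1 unnamed line with the library totals, which was dropped, and 0 value columns were left unused.

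A TPM value is the read number over the gene length, times 1 constant per library. The constant was worked out from 15 mitochondrial genes with their GENCODE lengths. The lengths found again for these genes equalled GENCODE for 15 of 15, which is no independent check, since those lengths had set the constant. With it, 34895 of 34899 genes above 0 gave whole reads within 0.001, which genes with reads in few libraries meet easily. The total count per library was 11366826 to 14314834 reads. Levels at or under 3 reads were not told apart from 0, and intervals from reads (95%, exact Poisson) cover counting error only.

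The scale was log2(TPM + 1) for the 17291 genes that averaged 1 TPM or more, with limma 3.58.1 (lmFit, and eBayes with a trend) in R 4.3.3 and Benjamini-Hochberg adjustment over all genes tested, called under 0.05. PDHB+/- was compared with WT in 2 groups, the clones in 3 groups, and replicate numbers in the 4 clone libraries with the clone as a term. DESeq2, which the authors name, was not run, since the deposited values are TPM and the reads were worked out from them. limma was tested on simulated data first. The alternatives were quantile normalization, median-of-ratios scaling, a pseudocount of 0.1 TPM, a filter at 5 TPM or none, 3 groups, a block for the replicate number, no variance trend, limma voom on the reads, adding the reads of CD177P1 to CD177, and leaving out each library. Where this left a single library in a group, the spread came from the other groups alone. Tables and figures were made with Python 3.11.15, pandas 2.3.3 and matplotlib 3.10.9, positions came from GENCODE v44 and promoters from RefSeq on GRCh38.p14.

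The genes and lists were chosen with earlier results of these data known. From each list the text names the genes that passed where at most 4 did, otherwise the 2 that rose and the 2 that fell furthest, and the 2 most abundant. Others (MIF, ICOSLG, PRTN3, CSF1R, FLT3 and the brush border genes under 1 TPM) were named after their values were seen.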

Additional observations from a re-analysis of the deposited data

Results flagged for a closer look

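Of 46 genes named in the report and examined in the 4 PDHB+/- libraries, 1 had a library standing far from the other 3. KITLG was at 14.8 TPM in clone #2 replicate 1 and at 20.8 to 21.7 TPM in the other PDHB+/- libraries. The gap to the nearest of these was a share of 0.874 of the whole range of the 4 values, above the 95% critical value of Dixon's test for 4 samples. Chance gives such a gap in about 1 in 20 genes, or 2.3 of 46. The library rests on 412 reads (exact Poisson 95% interval 373 to 454), and it remains far above the WT libraries with 11 and 16 reads. What set it apart was not tested.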

How the results depend on the processing

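CXCL12 and KITLG kept their direction and their call in all 15 other settings. CXCR4 (main log2 fold change -0.86) passed with quantile normalization (-1.02), median-of-ratios scaling (-1.0), a filter at 5 TPM (-0.86), the replicate number as a block (-0.86) and voom (-0.98), and ranged from -1.02 to -0.70 with 1 library left out. ACKR3 passed with quantile normalization (-0.50) and voom (-0.46). With 1 library left out, KIT ranged from 0.16 to 0.26, CD177 from 0.52 to 0.87 and VIL1 from -2.14 to -1.65. CD177 has a mean under 5 TPM, so that filter gives it no value. In single clones, KIT in clone #1 turned to -0.03 with quantile normalization and -0.02 with median-of-ratios scaling, and ranged from -0.01 to 0.22 with 1 library left out, while ACKR3 in clone #2 ranged from -0.62 to 0.00. Between the clones, CXCR4 turned to -0.03 with median-of-ratios scaling, -0.01 with quantile normalization, and -0.02 with voom. With 1 library left out these uncalled differences between the clones ranged from -0.47 to 0.49 for CXCR4, from -0.25 to 0.37 for ACKR3 and from -0.33 to 0.25 for CXCL12. VIL1 lost its call in clone #1 without a filter (-2.15) or a WT library, and in clone #2 without a filter or a trend (-1.59 in both), a WT library or clone #2 replicate 2 (-1.08).

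With 1 library left out, the 5475 genes became 1654 to 5200, the count for clone #1 360 to 3417 and that for clone #2 307 to 3354, all lowest without a WT library. Without a filter, 1948 genes passed in clone #1 and 1793 in clone #2. Between the clones, 6 genes passed with the filter at 5 TPM, 9 without a trend and 12 with voom (2 to 3 with 1 library left out), and 1218 passed between the replicate numbers with that filter. Of the 5475 genes 3943 were higher, against 2426 of 4938 with median-of-ratios scaling, 2720 of 5224 with quantile normalization and 2911 of 5508 with voom. The causes of these shifts were not tested.

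With the replicate number as a block, 6266 genes passed, 4433 in clone #1 and 4497 in clone #2, and CXCR4 passed (adjusted p = 0.016), as did CD177 in clone #1 (0.95). The differences between same-numbered libraries correlated with r = 0.353 between the clones but with -0.012 and -0.007 between WT and the clones, so that the numbers did not pair the WT libraries with those of the clones.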
